A study of Mus musculus with 20 samples.

Results

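Gene expression in the terminal ileum was compared between mice given antibiotics and mice given none, all fed the control diet (CD). The comparison used 10 of the 20 mice of the series, 5 CD mice with an SPF (specific pathogen-free) microbiota and 5 CD+ABX mice, and it was made across all genes. The remaining mice received a Trp-deficient diet (TDD) with or without the same antibiotics, and they entered the fit and a closing comparison. All mice were young female C57BL/6 animals for which no engineered allele is named, and ate their diet for 3 weeks. CD was a defined diet made from free amino acids (Baker's formula), so neither group ate chow. ABX was a mixture of ampicillin, vancomycin, metronidazole, neomycin and gentamycin in drinking water sweetened with sucrose. Sucrose in the water of SPF mice was not stated, so that the antibiotics, the sugar and the loss of bacteria cannot be told apart. Dirty bedding had been shared among cages on arrival to even out the microbiota, and how mice were caged during treatment is not given in the sources used here. All 20 mice were used.

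The ileum is lined by enterocytes that absorb nutrients and bile acids, by secretory cells that make mucus and antimicrobial peptides, and by an underlying lamina propria rich in lymphocytes, plasma cells and phagocytes. Gut bacteria are known to shape each of these compartments: they supply signals for antigen presentation, IgA production and intraepithelial lymphocytes, and they deconjugate and dehydroxylate bile acids. Antibiotic mixtures are a common way to deplete the microbiota of adult mice, and unlike germ-free rearing they act on an immune system that bacteria have already matured.

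Estimated counts summed to between 36676963 and 50751245 per CD mouse and between 41490809 and 58662617 per CD+ABX mouse. Levels are given in CPM, counts scaled to a common library size with TMM factors and not corrected for gene length, so that levels of different genes are not compared. Markers of differentiated epithelium were present in every mouse: Vil1, which encodes the microvillus protein villin, was at 2491 to 4246 CPM in CD mice and 3192 to 5132 CPM in CD+ABX mice. The 10 ileal enterocyte markers together summed to 6864 to 13014 CPM in CD mice and 9961 to 15546 CPM in CD+ABX mice. These sums overlapped between the groups. Of the 10 markers, Fabp6 and Slc10a2, which define the terminal ileum, were low in CD mice and by themselves went against the label. Fabp6, the ileal bile acid-binding protein, lay at 0.319 to 2.42 CPM and Slc10a2, the apical bile acid transporter, at 1.38 to 3.89 CPM. Lct (lactase) and Gata4, a transcription factor of more proximal small intestine, were at 1657 to 3125 and 75.1 to 118 CPM in the same mice, and at 1469.7 to 2819 and 88.7 to 114 CPM in CD+ABX mice. Fgf15, a hormone of ileal enterocytes, was detected in every CD mouse, at levels given below. Whether the pieces of tissue came from slightly different places along the gut was not tested. Each sample was a whole piece of gut wall, in which fewer cells of a type and less RNA per cell cannot be told apart.

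Several CD libraries stood apart from the others. CD mice 2 and 3 held B cell follicle transcripts, with 21 follicle genes summing to 159 and 227 CPM, against 25.3, 26.3 and 29.5 CPM in the other CD mice and 21.6 to 34.8 CPM in CD+ABX mice. CD mice 4 and 5 held the most cytotoxic lymphocyte transcripts, 205 and 315 CPM over 26 genes, against 117, 84.4 and 87.8 CPM in CD mice 1, 2 and 3. CD mouse 5 also held pancreatic acinar transcripts, at 204 CPM over 9 genes, where the CD+ABX mice were at 0.448 to 0.617 CPM. CD mouse 2 was lowest for absorptive genes, at 14682 CPM over the fat absorption list and 6864 CPM over the ileal enterocyte markers, where the CD+ABX mice were at 22539.9 to 34674 and 9961 to 15546 CPM and the other CD mice at 31070.4 CPM or more and 11057 CPM or more. The same mouse was highest of the CD mice for smooth muscle genes. The comparison was repeated without CD mice 2 and 3 and without CD mice 4 and 5. Smooth muscle genes summed to 1521 to 4953 CPM in CD mice and 2392 to 4238 CPM in CD+ABX mice, and none of the 13 passed the test.

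A gene was called when its Benjamini-Hochberg q from edgeR's quasi-likelihood test over all 16306 genes tested was under 0.05 and it changed at least 2-fold. With antibiotics 375 genes were called (2.30% of those tested), of which 99 were higher (0.607%) and 276 lower (1.69%). Without the fold limit 2083 genes passed (12.8%), 872 of them higher (5.35%) and 1211 lower (7.43%). The 5 CD and 5 CD+ABX mice did not overlap for 1588 genes (9.74%), among them 262 of the 375 called genes. Of the 375 called genes 64 averaged under 1 CPM in each of the 2 groups. The median log2 fold change over all genes was -0.0048. Lower calls outnumbered higher ones also in each of the 31 alternative analyses that were tried.

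**Figure D1:**
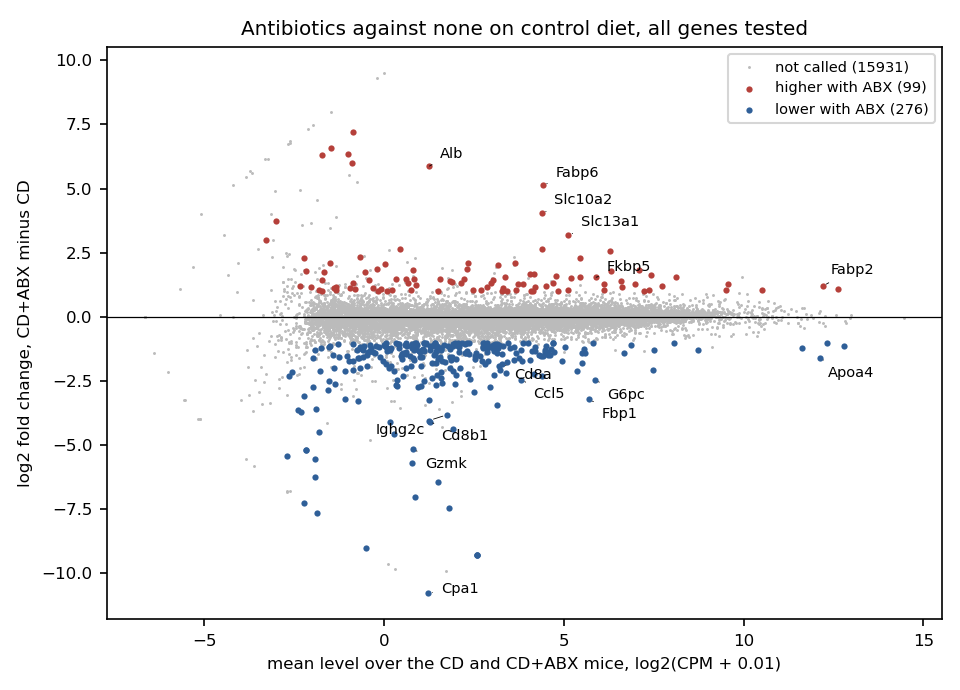
Each point is 1 of the 16306 genes tested, with its mean level over the CD and CD+ABX mice on the x axis (log2 of CPM plus a small constant) and the log2 fold change with antibiotics on the y axis. Red points mark the 99 genes called higher, among them Fabp6, Slc10a2 and Slc13a1, and blue points the 276 called lower, among them Gzmk, Cd8b1, Ighg2c, Fbp1 and G6pc. The lowest blue points include acinar genes such as Cpa1, which were detected mainly in CD mouse 5.

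Transcripts of cytotoxic T cells were among those that fell the most. Gzmk, which encodes granzyme K of CD8+ memory cells, lies on chromosome 13, 113171608 to 113225908 of GRCm38 (ENSMUSG00000042385.14). It was at 1.27, 1.21, 0.618, 5.51 and 8.17 CPM in CD mice 1 to 5 and at 0.132, 0.0719, 0.102, 0.0584 and 0.0943 CPM in CD+ABX mice 1 to 5. The groups did not overlap, and no CD+ABX mouse had more than 6 counts (log2 fold change -5.15, standard error 0.63, q = 8.9e-05). Cd8b1 (chromosome 6, 71322788 to 71337494; ENSMUSG00000053044.8), the beta chain of the CD8 coreceptor, was at 2.01, 1.63, 2.11, 6.26 and 10.4 CPM without antibiotics and at 0.243, 0.144, 0.369, 0.214 and 0.339 CPM with them (log2 fold change -4.07, standard error 0.61, q = 0.000487). Every CD+ABX mouse lay below every CD mouse for this chain as well. Cd8a, the alpha chain that many intraepithelial lymphocytes carry as a homodimer, went from 10.9, 5.75, 7.48, 21.6 and 29.8 to 3.15, 4.36, 4.67, 4.26 and 4.6 CPM (log2 fold change -1.84, standard error 0.34, q = 0.0019). Its fall was smaller than that of the beta chain, a difference that was not tested.

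Other T cell genes followed. Cd3e, a chain of the T cell receptor complex, was at 6.58, 4.63, 5.79, 10.5 and 15.9 CPM in CD mice and at 2.62, 2.76, 2.85, 2.51 and 3.32 CPM in CD+ABX mice (log2 fold change -1.63, standard error 0.28, q = 0.00112). Cd5 (-2.69, q = 0.00129) and Cd6 (-2.5, q = 0.000543), surface receptors that tune T cell activation, fell without overlap between groups, as did Ms4a4b (-2.61, q = 0.000392), a membrane protein of T cells, and Cxcr3 (-1.67, q = 0.000913), the receptor for interferon-induced chemokines. Gzma and Gzmb, the granzymes of resting intraepithelial lymphocytes, were at 18.3, 8.68, 9.48, 39.5 and 71 and 8.9, 3.75, 3.97, 18.5 and 36.5 CPM in CD mice and at 8.51, 10.6, 11.7, 10.4 and 11.6 and 4.32, 5.49, 5.32, 5.88 and 4.94 CPM in CD+ABX mice. Here the groups overlapped, because only CD mice 1, 4 and 5 lay above the CD+ABX mice. Without CD mice 4 and 5 the log2 fold change was -1.01 for Cd3e (q = 0.00872), -1.07 for Cxcr3 (q = 0.00724), -0.20 for Gzma (q = 0.697) and -0.09 for Gzmb (q = 0.875). The call of Gzma (log2 fold change -1.48, q = 0.0279) was lost on removing 1 of the mice CD 4, CD 5, CD+ABX 1, CD+ABX 2, CD+ABX 3, CD+ABX 4 and CD+ABX 5 (log2 fold change from -1.71 to -0.84 and q up to 0.125 over the 20 fits) and by limma-voom, with the replicate block or with the 2 groups fitted alone (q up to 0.165), and that of Gzmb (-1.46, q = 0.0352) was lost on removing 1 of the mice CD 4, CD 5, CD+ABX 1, CD+ABX 2, CD+ABX 3, CD+ABX 4 and CD+ABX 5 (log2 fold change from -1.71 to -0.75 and q up to 0.173 over the 20 fits) and by limma-voom, with the replicate block or with the 2 groups fitted alone (q up to 0.241). Trdc, the constant region of gamma delta T cell receptors, was at 2.23 to 4.08 and 2.22 to 3.83 CPM and did not pass the test (0.01, q = 0.972).

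Of 26 cytotoxic and intraepithelial lymphocyte genes tested, 16 were called lower and none higher, with a median log2 fold change of -1.26. When 1 mouse was left out at a time the number called lower ran from 11, without CD mouse 5, to 18. Without CD mice 4 and 5 it was 5, with 10 members at q under 0.05, and without CD mice 2 and 3 it was 18. Gzmk and Cd8b1 stayed called without CD mice 4 and 5 (log2 fold changes -3.45 and -2.85, q = 0.000133 and 0.00413), whereas Cd8a changed by -0.93 (q = 0.0167). Ifng, which encodes interferon-gamma, did not reach 0.5 CPM in any mouse and was not tested.

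**Figure D2:**
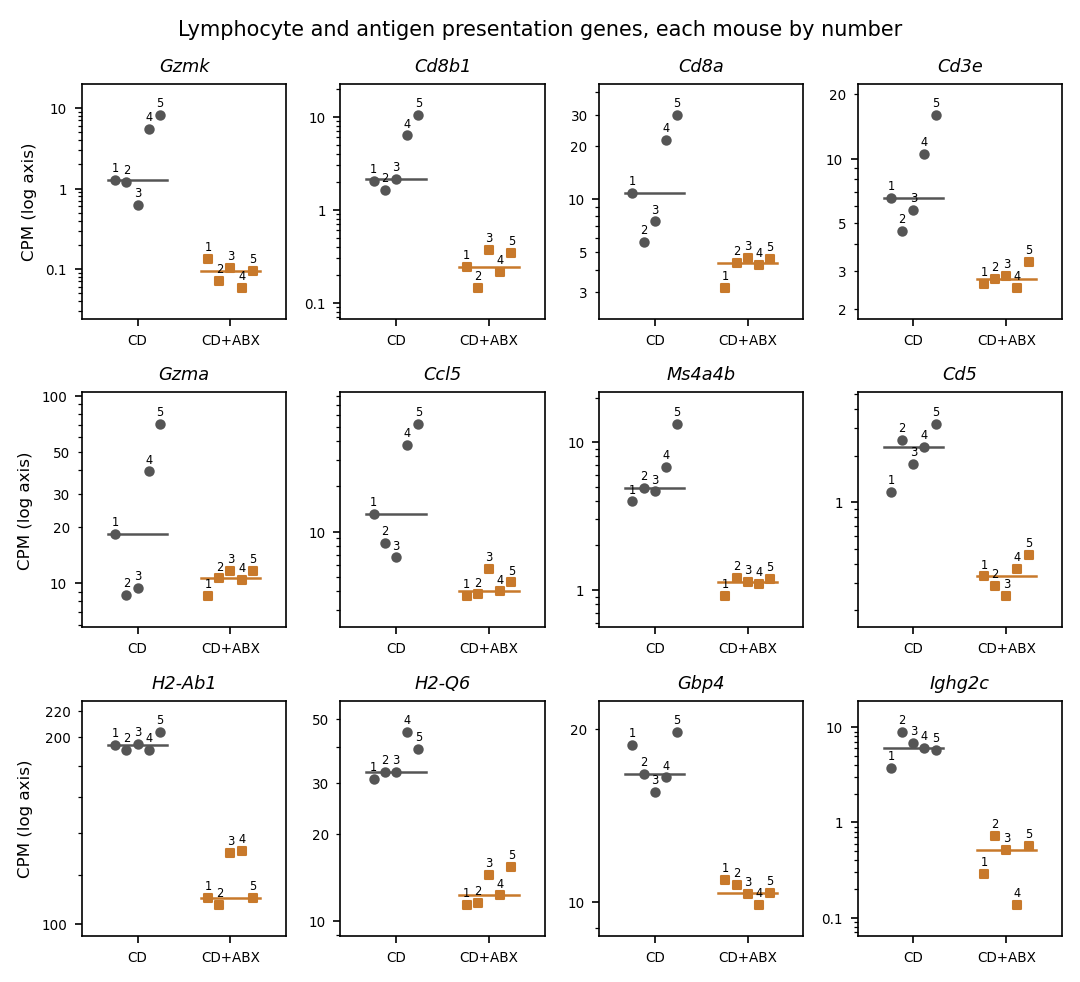
Levels of 12 immune genes (CPM on log axes, with a different range for each gene) in the 5 CD mice (grey) and 5 CD+ABX mice (orange). Numbers are the mice and lines the group medians. The groups separate for every gene drawn except Gzma, and CD mice 4 and 5 are the highest for most T cell genes.

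Of the genes of antigen presentation by MHC class II 6 fell, each by less than 2-fold. These genes encode the molecules on which macrophages, dendritic cells, B cells and some enterocytes show bacterial peptides to CD4+ T cells, and their promoters carry conserved boxes bound by the machinery that recruits the class II transactivator. H2-Ab1 (chromosome 17, 34257689 to 34269419; ENSMUSG00000073421.6), the beta chain of the I-A molecule, was at 194, 191, 195, 191 and 204 CPM in CD mice and at 110.2, 107, 130.4, 131 and 110.2 CPM in CD+ABX mice (log2 fold change -0.72, standard error 0.13, q = 0.00145). The groups lay far apart relative to their spread. Ciita, the class II transactivator, was at 19.5, 23.1, 24.7, 16.6 and 17.4 CPM in CD and 11.7, 11.2, 13.2, 11.4 and 12 CPM in CD+ABX mice. Its groups did not overlap either, but it did not pass the test (log2 fold change -0.77, standard error 0.28, q = 0.0746). Of the 10 genes tested 6 fell at q under 0.05, none of them by 2-fold, and 9 did not overlap between groups. Their median log2 fold change was -0.75, and their summed level was 939.8 to 1051 CPM in CD mice and 581 to 670.4 CPM in CD+ABX mice. Besides Ciita, the members that did not pass were H2-DMb2, H2-Oa and H2-Ob, which B cells express and which were highest in CD mice 2 and 3. With CD mice 2 and 3 or CD mice 4 and 5 left out, 6 members still fell at q under 0.05.

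Promoters of 2 class II genes are shown because these genes moved together and share a box. RefSeq promoter windows of 300 bases on GRCm38.p6 were available for 7 of the 10 genes, and the Y box letters CTGATTGG, searched on both strands, were in 3 of them (42.9%), those of H2-Aa, H2-Eb1 and H2-Oa. Over all 27025 windows the share was 4.31%, and over those of genes tested here 5.74%. The match is a description of these letters alone. In the stretches below, written from 5′ to 3′ on the strand of the gene, capitals mark the Y box. The first lies at chr17:34287827-34287914 on the minus strand and the second at chr17:34305765-34305852 on the plus strand. H2-Aa had a log2 fold change of -0.62 (q = 0.00856) and H2-Eb1 one of -0.57 (q = 0.00704).
H2-Aa: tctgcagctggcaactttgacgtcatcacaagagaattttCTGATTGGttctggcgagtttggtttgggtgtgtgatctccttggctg
H2-Eb1: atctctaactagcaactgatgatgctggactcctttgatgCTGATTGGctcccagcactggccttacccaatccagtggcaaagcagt

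Genes that interferon-gamma induces fell alongside. The guanylate-binding proteins and related GTPases, which attack intracellular microbes, numbered 23 with their regulators, of which 13 fell at q under 0.05, 1 of them by 2-fold, and none rose, with a median log2 fold change of -0.60. Gbp4 was at 18.7, 16.7, 15.5, 16.4 and 19.7 CPM in CD mice and 10.9, 10.7, 10.3, 9.87 and 10.3 CPM in CD+ABX mice, without overlap (log2 fold change -0.74, standard error 0.10, q = 0.000157). Gbp6 was the called member, at 27.1, 11.7, 30.7, 37.1 and 51.2 CPM in CD and 10.3, 14.8, 12.8, 15.2 and 11.1 CPM in CD+ABX mice with CD mouse 2 inside the range of the CD+ABX mice (log2 fold change -1.3, standard error 0.26, q = 0.00359). Without CD mice 4 and 5 Gbp6 fell by less than 2-fold (-0.85, q = 0.0428), and 8 members fell at q under 0.05. Of 22 MHC class I genes 8 fell, 3 of them called. The called members were the nonclassical genes H2-Q6, at 31.1, 32.9, 32.7, 45.1 and 39.5 CPM in CD and 11.4, 11.6, 14.5, 12.3 and 15.4 CPM in CD+ABX mice (log2 fold change -1.48, standard error 0.19, q = 0.000157), and its near-identical neighbour H2-Q7 (-1.42, q = 0.000292), between which reads could have been split, and Nlrc5 (-1.03, q = 0.00431), the class I transactivator. The call of Nlrc5 was lost on removing 1 of the mice CD 4, CD 5 and CD+ABX 1 (log2 fold change from -1.14 to -0.87 and q up to 0.0133 over the 20 fits) and by limma-voom or with the replicate block.

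Type I interferon-stimulated genes moved little as a group, with 3 of 35 falling and a median log2 fold change of -0.15. Ifi44 (-1.62, q = 0.0213) and Ifi27l2a (-1.21, q = 0.0253) were called, both with CD mouse 5 highest. Their calls were lost on removing 1 of the mice CD 5, CD+ABX 1 and CD+ABX 5 (log2 fold change from -1.88 to -1.04 and q up to 0.0881 over the 20 fits) and by limma-voom, with the replicate block or with the 2 groups fitted alone (q up to 0.0886) for Ifi44 and on removing 1 of the mice CD 5, CD+ABX 2, CD+ABX 3 and CD+ABX 5 (log2 fold change from -1.38 to -0.60 and q up to 0.0925 over the 20 fits) and by limma-voom, with the replicate block or with the 2 groups fitted alone (q up to 0.0961) for Ifi27l2a. No member of the list passed without CD mouse 5. Oas2, a sensor of double-stranded RNA, was at 20.3, 7.58, 20.5, 42.5 and 62.6 CPM in CD and 10.6, 16.9, 17.2, 26.9 and 16.3 CPM in CD+ABX mice and did not pass (-0.80, q = 0.221).

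Among chemokines, 7 of 28 fell and 3 were called, with a median log2 fold change of -0.45. Ccl5, made by T cells and NK cells, was at 13.1, 8.38, 6.72, 37.9 and 52.4 CPM in CD mice and 3.7, 3.81, 5.61, 3.99 and 4.58 CPM in CD+ABX mice (log2 fold change -2.45, standard error 0.44, q = 0.00161). The groups did not overlap, and CD mice 4 and 5 were again highest. Without them the log2 fold change of Ccl5 was -1.11 (q = 0.0107). Ccl4 (-1.53, q = 0.0116) and Ccl24 (-1.57, q = 0.00507), which attract lymphocytes and eosinophils, were the other called members, and the call of Ccl4 was lost without CD mice 4 and 5 (-1.21, q = 0.0751). Cxcl9, a ligand of Cxcr3 induced by interferon-gamma, fell just short of 2-fold, from 8.51, 6.77, 7.38, 7.48 and 11.1 to 3.11, 4.08, 4.65, 4.2 and 4.73 CPM (log2 fold change -0.99, standard error 0.22, q = 0.00729). Cxcl10 was not past the test (-0.64, q = 0.233), nor was Ccl28, the epithelial chemokine for IgA plasma cells (-0.43, q = 0.102), although its groups did not overlap.

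Macrophage and dendritic cell genes fell by a narrow margin across the list. Of 22 tested, 15 fell at q under 0.05, none rose, and 16 did not overlap between groups, with a median log2 fold change of -0.48. Their summed level was 355 to 454 CPM in CD mice and 255 to 285 CPM in CD+ABX mice. Cd209a, a lectin of dendritic cells, was the called member, at 2.31, 2.28, 2.15, 1.88 and 2.11 CPM in CD and 1.41, 1.15, 0.88, 0.856 and 0.547 CPM in CD+ABX mice (log2 fold change -1.15, standard error 0.22, q = 0.00285), a call lost on removing the mouse CD+ABX 5 (log2 fold change from -1.32 to -1.0 and q up to 0.00888 over the 20 fits). Csf1r, the receptor on which macrophages depend, was chosen after its values were seen and went from 54.2, 52.2, 48.3, 49.9 and 61.1 to 25.6, 28, 35.9, 27.5 and 36 CPM (log2 fold change -0.80, standard error 0.13, q = 0.000899). With CD mice 4 and 5 left out 6 members fell, and with CD mice 2 and 3 left out 11. Siglecf, a marker of eosinophils that tuft cells also express, rose from 3.06, 4.54, 4.79, 4.01 and 4.36 to 6.0, 4.72, 13.8, 8.78 and 10.2 CPM (log2 fold change 1.07, standard error 0.25, q = 0.00915), a call that was lost on removing 1 of the mice CD 1 and CD+ABX 3 (log2 fold change from 0.84 to 1.23 and q up to 0.0309 over the 20 fits) and by limma-voom. Siglecf was the only 1 of 7 eosinophil and neutrophil genes tested with a positive fold change. The other 6 had negative ones, 1 of them at q under 0.05, and the list's median log2 fold change was -0.42.

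B cell follicle genes had a median log2 fold change of -2.36 over 21 genes, but only 2 were called. With other tools the number was 12 by DESeq2 and 0 by limma-voom, and with 1 mouse left out it was 0 to 9. One of the 2 was Mef2b (-2.11, q = 0.045), a transcription factor of the germinal centre reaction, which was highest in CD mice 2 and 3. Without those 2 mice no member passed the test, and the call of Mef2b was also lost on removing 1 of the mice CD 2, CD 3, TDD 2, TDD 5, CD+ABX 1, CD+ABX 2, CD+ABX 3, CD+ABX 4, CD+ABX 5, TDD+ABX 2 and TDD+ABX 3 (log2 fold change from -2.34 to -1.43 and q up to 0.193 over the 20 fits) and by limma-voom, with no filter on low counts, with the replicate block or with the 2 groups fitted alone (q up to 0.149). Fcrl1, a B cell receptor-like protein outside the list, was called lower (-2.67, q = 0.0343), a call lost on removing 1 of the mice CD 2, CD 3, CD+ABX 1, CD+ABX 2, CD+ABX 3, CD+ABX 4 and CD+ABX 5 (log2 fold change from -2.9 to -2.14 and q up to 0.107 over the 20 fits) and by limma-voom (q up to 0.217).

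Plasma cell genes gave a mixed picture. Igha, the heavy chain of IgA, was at 1467, 2064, 1478, 1182 and 1246 CPM in CD mice and 706, 961, 1183, 758 and 1301 CPM in CD+ABX mice, with CD+ABX mice 3 and 5 within the CD range, and narrowly missed the threshold (log2 fold change -0.60, standard error 0.20, q = 0.0519). Jchain, which joins IgA dimers, did likewise (log2 fold change -0.54, standard error 0.19, q = 0.0714), and Pigr, the receptor that carries IgA across the epithelium, did not pass (-0.24, q = 0.354). Transcripts of IgG were called lower. Ighg2c (chromosome 12, 113285325 to 113288932; ENSMUSG00000076612.8) was at 3.75, 8.89, 6.78, 6.01 and 5.83 CPM in CD mice and 0.287, 0.719, 0.512, 0.136 and 0.566 CPM in CD+ABX mice (log2 fold change -3.82, standard error 0.45, q = 7.59e-05), and Ighg2b at 4.55, 22.1, 26.1, 6.15 and 8.13 CPM in CD and 1.46, 3.05, 2.52, 1.11 and 2.09 CPM in CD+ABX mice (log2 fold change -2.72, standard error 0.63, q = 0.00859). Neither overlapped. Ighg2c stayed called in all 31 settings tried, and Ighg2b was not called by limma-voom (q = 0.156). Ighg2b was highest in CD mice 2 and 3 and was not called without them (-1.62, q = 0.107). Of 15 IgA plasma cell genes 5 fell and 2 rose, and the called member was Irf4, a transcription factor of plasma cells (-1.01, q = 0.0291). Its call was lost on removing 1 of the mice CD 2, CD 3, CD+ABX 1, CD+ABX 2 and CD+ABX 4 (log2 fold change from -1.12 to -0.88 and q up to 0.0822 over the 20 fits) and with RLE scaling, by DESeq2 or by limma-voom (q up to 0.0822), and without CD mice 2 and 3 (-0.63, q = 0.231). Without CD mice 2 and 3 none of the 15 fell past the test, and without CD+ABX mouse 4 only 1 did.

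A minority of immunoglobulin variable segments changed. Of 92 heavy segments 7 were called lower, and of 89 kappa segments 11 were called lower and 1 higher, in segments whose near-identical copies could share reads. Over all genes tested 1.69% were called lower and 0.607% higher, so that lower calls were more frequent among the segments. Ighv1-50 was at 5.65, 4.7, 4.89, 5.35 and 2.88 CPM in CD mice and 0.706, 0.312, 1.49, 0.311 and 0.83 CPM in CD+ABX mice (log2 fold change -2.67, standard error 0.47, q = 0.00148). Igkv15-103 was the segment that rose, from 1.96, 5.21, 3.63, 3.03 and 3.81 to 19.9, 11.3, 11.1, 23.5 and 5.85 CPM (log2 fold change 2.02, standard error 0.56, q = 0.0234), a call lost on removing 1 of the mice CD 1, CD 3 and CD+ABX 4 (log2 fold change from 1.77 to 2.22 and q up to 0.0576 over the 20 fits) and by limma-voom (q up to 0.0641). Igkv3-2 (-2.57, q = 0.00637) and Igkv6-15 (-2.18, q = 0.00293) were among the segments that fell. So were Ighv8-8 (-2.39, q = 0.0241) and Ighv1-64 (-1.69, q = 0.0297). Of these, the call was lost on removing 1 of the mice CD 2, CD+ABX 2 and CD+ABX 5 (log2 fold change from -2.97 to -2.0 and q up to 0.0604 over the 20 fits) for Ighv8-8 and on removing 1 of the mice CD 3, CD 4, CD+ABX 1, CD+ABX 2 and CD+ABX 5 (log2 fold change from -1.97 to -1.48 and q up to 0.0741 over the 20 fits) and by limma-voom or with the 2 groups fitted alone (q up to 0.115) for Ighv1-64. Without CD mice 2 and 3, 1 heavy and 4 kappa segments were called lower.

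Of the regulatory and type 17 T cell genes, Il10, Il17a, Il17f and Il22 did not reach 0.5 CPM in any mouse and were not tested. Of 18 genes tested, 1 was called: Ctla4, an inhibitory receptor of regulatory T cells, fell from 0.441, 0.605, 0.998, 0.941 and 1.47 to 0.243, 0.216, 0.41, 0.292 and 0.321 CPM (log2 fold change -1.58, standard error 0.38, q = 0.00941). Its call was lost without CD mice 4 and 5 (-1.2, q = 0.0785). Foxp3, which defines regulatory T cells, was at 0.248, 0.326, 0.559, 0.161 and 0.168 CPM in CD and 0.287, 0.168, 0.307, 0.253 and 0.207 CPM in CD+ABX mice (-0.26, q = 0.792). The groups overlapped for Foxp3. Gata3, a transcription factor of T cell and innate lymphoid subsets, did not pass the test (-0.33, q = 0.323).

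Antimicrobial products of enterocytes were lower by their levels, but few passed the test. Reg3g, a lectin that keeps Gram-positive bacteria off the epithelium, was at 178, 196, 219, 143 and 339 CPM in CD mice and 47.2, 82.8, 98.8, 104 and 93.1 CPM in CD+ABX mice, and Reg3b at 760.2, 1064, 649.7, 636 and 742 CPM in CD and 191, 360.3, 438, 322 and 413 CPM in CD+ABX mice. For both genes all CD+ABX mice lay below all CD mice. Neither passed in the fit of all 20 mice (Reg3g log2 fold change -1.33, standard error 0.55, q = 0.122; Reg3b log2 fold change -1.16, standard error 0.56, q = 0.192), whose spread included TDD mice at 113 to 1876 CPM of Reg3g. With the CD and CD+ABX mice fitted alone both were called (q = 0.00982 for Reg3g and 0.00927 for Reg3b). Reg1, a related secreted lectin, was called (log2 fold change -1.2, standard error 0.27, q = 0.00637), a call lost on removing the mouse CD 5 (log2 fold change from -1.36 to -0.96 and q up to 0.0202 over the 20 fits). Saa1, an acute-phase protein that attached bacteria induce, was at 0.0229 to 0.18 CPM in CD mice and 0 to 0.168 CPM in CD+ABX mice (-0.61, q = 0.823). Of the 16 genes of the list 4 fell and none rose, with a median log2 fold change of -0.62.

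Of 8 enzymes that make or remove oxidants at the epithelial surface 3 rose, all of them called, and 1 fell. The one that fell was Cyba, a subunit of phagocyte and epithelial oxidases, named after its values were seen (-0.50, q = 0.0283). Without CD+ABX mouse 4 none was called. Duox2, the dual oxidase that releases hydrogen peroxide into the lumen, was at 9.34, 24, 15.9, 12.5 and 32.5 CPM in CD mice and 15.1, 17.1, 48.7, 134 and 56.7 CPM in CD+ABX mice, and its maturation factor Duoxa2 at 1.52, 3.07, 1.72, 1.33 and 2.88 CPM in CD and 1.61, 2.45, 6.25, 20.9 and 7.56 CPM in CD+ABX mice. The rise lay in CD+ABX mice 3, 4 and 5, while mice 1 and 2 were within the CD range. The call of Duox2 (log2 fold change 1.53, standard error 0.50, q = 0.0489) was lost on removing 1 of the mice CD 1, CD 2, CD 3, CD 4, TDD 1, TDD 2, TDD 3, TDD 5, CD+ABX 3, CD+ABX 4, CD+ABX 5, TDD+ABX 1, TDD+ABX 2, TDD+ABX 3 and TDD+ABX 5 (log2 fold change from 0.88 to 1.82 and q up to 0.216 over the 20 fits) and with upper-quartile scaling, by limma-voom, with no filter on low counts, with the replicate block or with the 2 groups fitted alone (q up to 0.131), and that of Duoxa2 (log2 fold change 1.88, standard error 0.52, q = 0.0229) on removing 1 of the mice CD 1, CD 3, CD 4 and CD+ABX 4 (log2 fold change from 1.1 to 2.14 and q up to 0.106 over the 20 fits) and by limma-voom, with the replicate block or with the 2 groups fitted alone (q up to 0.108). Gpx2, an epithelial glutathione peroxidase, rose without overlap, from 76.8, 134, 78.1, 106 and 143 to 156, 174, 252, 263 and 266 CPM (log2 fold change 1.05, standard error 0.24, q = 0.00774), and changed by less than 2-fold on removing 1 of the mice CD 1, CD 3, CD+ABX 4 and CD+ABX 5 (log2 fold change from 0.95 to 1.17 and q up to 0.0246 over the 20 fits). Nos2, inducible nitric oxide synthase, did not pass (0.34, q = 0.817).

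Paneth and goblet cell genes were little altered. None of 16 Paneth cell products passed, and Lyz1, their lysozyme, was at 3885, 5925, 3821, 4455 and 5317 CPM in CD and 5682, 4446, 3294, 4281 and 2754 CPM in CD+ABX mice (-0.19, q = 0.573). Ang4, another Paneth cell antimicrobial protein, did not change past the test (0.26, q = 0.557). Muc2, the gel-forming mucin of goblet cells, had overlapping groups (-0.16, q = 0.544). B3gnt6, an enzyme that builds mucin core glycans, was the called goblet cell gene, at 0.827, 0.931, 0.599, 0.849 and 0.568 CPM in CD and 1.15, 1.25, 1.88, 1.75 and 1.68 CPM in CD+ABX mice (log2 fold change 1.03, standard error 0.23, q = 0.00681), and changed by less than 2-fold on removing 1 of the mice CD 3, CD 5, CD+ABX 3 and CD+ABX 4 (log2 fold change from 0.95 to 1.13 and q up to 0.0214 over the 20 fits). Fut2, a fucosyltransferase that decorates the epithelium for bacteria, rose by just under 2-fold, from 1.1, 1.21, 1.12, 1.22 and 0.968 to 1.68, 1.29, 3.05, 2.59 and 2.55 CPM (log2 fold change 0.99, standard error 0.23, q = 0.00729).

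Genes of tuft cells, rare chemosensory cells that respond to microbial succinate and to parasites, mostly rose. Of 15 tuft cell genes 10 rose at q under 0.05, none by 2-fold, and none fell, with a median log2 fold change of 0.81. The summed level was 109 to 129 CPM in CD mice and 132 to 239 CPM in CD+ABX mice, so that the groups did not overlap. Pou2f3, the transcription factor that specifies the lineage, was chosen after its values were seen and was at 2.7, 3.09, 2.73, 2.59 and 2.67 CPM in CD mice and 3.88, 3.48, 7.49, 5.08 and 5.21 CPM in CD+ABX mice (log2 fold change 0.87, standard error 0.17, q = 0.0029). Dclk1, a kinase used as a tuft cell marker and chosen in the same way, was at 15, 18.3, 16, 12.8 and 12.3 CPM in CD and 19.3, 18.3, 32.7, 23.8 and 24.7 CPM in CD+ABX mice (log2 fold change 0.68, standard error 0.16, q = 0.00937). The rise was greatest in CD+ABX mouse 3 for both. Between 7 and 12 members rose when 1 mouse was left out, and 5 rose without CD mice 4 and 5.

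Some enteroendocrine hormones fell. Of 15 genes 4 fell and none rose, and the 4 were Cck (-0.79, q = 0.000875), Nts (-0.83, q = 0.00168), Gip (-0.61, q = 0.00194) and Sst (-0.22, q = 0.0238), which encode cholecystokinin, neurotensin, the incretin GIP and somatostatin. They were named after their values were seen, and none overlapped between groups. Nts was at 65.7, 68.7, 92.7, 73.5 and 77.6 CPM in CD mice and 36.3, 44.2, 35.2, 39.8 and 57.6 CPM in CD+ABX mice. Chga, a granule protein of all enteroendocrine cells (0.13, q = 0.608), and Tph1, the enzyme that commits Trp to serotonin (-0.11, q = 0.838), did not pass the test.

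Among called genes above 1 CPM whose groups did not overlap, the highest log2 fold changes were those of Fabp6 and Slc10a2, genes of bile acid uptake. Fabp6 (chromosome 11, 43596049 to 43601540; ENSMUSG00000020405.4) was at 0.413, 2.42, 0.319, 0.711 and 2.0 CPM in CD mice and 2.65, 14.6, 5.47, 144 and 40.8 CPM in CD+ABX mice (log2 fold change 5.14, standard error 1.07, q = 0.00431). The groups did not overlap, but CD+ABX mouse 1 lay just above CD mouse 2, and mouse 4 held more than the other 4 together. Fabp6 was not called by limma-voom (q = 0.101). Slc10a2 (chromosome 8, 5083219 to 5105351; ENSMUSG00000023073.2) was at 1.46, 3.89, 1.38, 2.62 and 2.44 CPM in CD mice and 24.3, 33.1, 16.6, 37.3 and 86.1 CPM in CD+ABX mice (log2 fold change 4.07, standard error 0.47, q = 7.59e-05), and stayed called in all 31 settings. Slc51a (0.56, q = 0.032) and Slc51b (0.44, q = 0.0314), the basolateral bile acid exporter, also rose, by less than 2-fold, and were named after their values were seen. Fgf15, the hormone by which ileal enterocytes report bile acids to the liver, was at 44.7, 92.4, 90.2, 92.9 and 48.8 CPM in CD and 24.6, 32.2, 59.9, 65.4 and 17.2 CPM in CD+ABX mice (log2 fold change -0.89, standard error 0.56, q = 0.342), and Nr0b2, another target of the bile acid receptor FXR, at 4.82, 3.12, 4.23, 6.77 and 6.34 CPM in CD and 1.39, 1.08, 2.95, 3.97 and 1.98 CPM in CD+ABX mice (log2 fold change -1.15, standard error 0.47, q = 0.117). Both were lower on average and neither passed the test. Of 16 genes of the list 5 rose and none fell. Since Fabp6 and Slc10a2 also define ileal position, their rise and a difference in where tissue was taken cannot be told apart. Of the 10 ileal enterocyte markers 3 rose at q under 0.05 and none fell, with a median log2 fold change of 0.23. Of the 7 proximal markers tested 2 fell, neither by 2-fold, and none rose, with a median of -0.47. Over all genes tested 5.35% rose and 7.43% fell. Of the proximal markers, Lct (-0.22, q = 0.461) and Gata4 (0.03, q = 0.902) did not pass the test, and Fabp1, most abundant in proximal gut, was at 1194, 400.2, 1725, 844 and 940.1 CPM in CD and 752, 604, 803, 424 and 628 CPM in CD+ABX mice (-0.67, q = 0.129).

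Further transporters and channels were called higher. Slc13a1, a sulfate transporter, was at 5.23, 8.54, 4.91, 10.1 and 5.41 CPM in CD mice and 58.2, 58.5, 40.4, 45.2 and 112 CPM in CD+ABX mice (log2 fold change 3.2, standard error 0.33, q = 3.98e-05), with CD+ABX mouse 5 highest. Slc28a1, a pyrimidine nucleoside transporter, went from 24.9, 16.9, 8.68, 16.3 and 7.73 to 54.8, 67.1, 79, 68 and 94.8 CPM (log2 fold change 2.29, standard error 0.34, q = 0.000429), and the water and glycerol channel Aqp3 from 14.4, 4.63, 5.93, 11.3 and 7.35 to 24.3, 25, 21.6, 28.3 and 38.7 CPM (log2 fold change 1.67, standard error 0.31, q = 0.00218). None of the 3 overlapped. Slc5a6, the carrier of biotin and pantothenate, rose by just over 2-fold (1.01, q = 0.000557) and fell below that limit on removing 1 of the mice CD 3, CD 5 and CD+ABX 5 (log2 fold change from 0.83 to 1.08 and q up to 0.00241 over the 20 fits) and with upper-quartile scaling, by limma-voom or with the replicate block. These 4 were the called members among 25 anion, water and nucleoside transporters, whose median log2 fold change was 0.10.

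Peptide digestion and amino acid uptake at the brush border rose broadly. Of 21 genes 11 rose at q under 0.05, 3 of them called, and none fell, with a median log2 fold change of 0.41. Slc6a19, the main carrier of neutral amino acids, was at 533, 289, 385, 625 and 388 CPM in CD mice and 861, 1133, 949.7, 856 and 1628 CPM in CD+ABX mice (log2 fold change 1.29, standard error 0.20, q = 0.000736). Anpep, aminopeptidase N, was at 4228, 3669, 2806, 5175 and 4260.2 CPM in CD and 7039, 9183, 8152, 7139.8 and 11448 CPM in CD+ABX mice (log2 fold change 1.09, standard error 0.18, q = 0.00109), and Enpep, aminopeptidase A, at 986, 883, 700.3, 1244 and 938 CPM in CD and 1824, 2234, 1693, 1541 and 2435 CPM in CD+ABX mice (log2 fold change 1.03, standard error 0.16, q = 0.000522). All 3 were higher in every CD+ABX mouse than in every CD mouse. Anpep changed by less than 2-fold on removing 1 of the mice CD 3 and CD+ABX 5 (log2 fold change from 0.97 to 1.2 and q up to 0.00356 over the 20 fits), as did Enpep on removing 1 of the mice CD 3, CD+ABX 2 and CD+ABX 5 (log2 fold change from 0.94 to 1.15 and q up to 0.00224 over the 20 fits). Slc6a18, a related carrier better known from kidney, rose from 0.276, 0.14, 0.219, 0.161 and 0.232 to 0.728, 0.959, 0.717, 1.09 and 1.7 CPM (log2 fold change 2.33, standard error 0.37, q = 0.000679).

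Among genes of sugar handling, those of gluconeogenesis had the lowest fold changes. Fbp1, fructose-1,6-bisphosphatase (chromosome 13, 62864753 to 62888282; ENSMUSG00000069805.10), was at 88.5, 71.9, 173, 74.8 and 59.2 CPM in CD mice and 12.4, 10.6, 12, 6.7 and 8.69 CPM in CD+ABX mice (log2 fold change -3.22, standard error 0.39, q = 7.59e-05). G6pc, which releases free glucose (chromosome 11, 101367561 to 101377903; ENSMUSG00000078650.2), was at 122, 56.2, 122, 88.3 and 103 CPM in CD and 6.57, 15.5, 16.7, 33.1 and 17.4 CPM in CD+ABX mice (log2 fold change -2.46, standard error 0.37, q = 0.000492). Both separated the groups by a wide margin and stayed called in all 31 settings. Tkfc, triokinase (-1.29, q = 0.000469), and Sis, sucrase-isomaltase (-1.03, q = 0.00298), were also called and did not overlap. Of 21 genes 8 fell, 5 of them called, and 1 rose, with a median log2 fold change of -0.30. The glucose carrier Slc5a1 (-0.23, q = 0.481), chosen after its values were seen, did not pass. The sugar list summed to 18182 to 30930.1 CPM in CD mice and 10314 to 22576 CPM in CD+ABX mice, with CD+ABX mouse 4 lowest.

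More genes of fat absorption fell than rose. Fabp2, the intestinal fatty acid-binding protein, rose from 2783, 2146, 2716, 3636 and 2965 to 5352, 5893, 5237, 6853 and 9415 CPM (log2 fold change 1.2, standard error 0.18, q = 0.000487), with no overlap. Apoa4 and Apoc2, apolipoproteins of chylomicrons, were at 8259, 1295, 11796, 5901 and 6215 and 293, 44.2, 434, 305 and 362 CPM in CD mice and at 2144, 2358, 1909.5, 1815 and 2737 and 62.5, 56.3, 67.4, 81.9 and 74 CPM in CD+ABX mice (Apoa4 log2 fold change -1.61, standard error 0.35, q = 0.0054; Apoc2 log2 fold change -2.07, standard error 0.36, q = 0.00129). For both, CD mouse 2 lay below every CD+ABX mouse and the other CD mice above them all. Of 24 genes 6 fell at q under 0.05 and 1, Fabp2, rose, with a median log2 fold change of -0.34. Over all genes tested 7.43% fell and 5.35% rose. Cd36, a fatty acid receptor, did not pass (-0.32, q = 0.103). Among 26 genes that respond to PPAR or oxidise fatty acids, Acaa1b, a peroxisomal thiolase, fell (log2 fold change -2.28, standard error 0.35, q = 0.000543), Aqp7, a glycerol channel, rose (log2 fold change 1.54, standard error 0.27, q = 0.00124), and Pdk4, which spares glucose during fasting, fell (log2 fold change -1.35, standard error 0.37, q = 0.0229). The call of Pdk4 was lost on removing 1 of the mice CD 4, CD+ABX 1, CD+ABX 3 and CD+ABX 5 (log2 fold change from -1.79 to -1.01 and q up to 0.0735 over the 20 fits) and with the 2 groups fitted alone (q up to 0.0758). Angptl4, which fasting and bacterial fatty acids are known to induce, did not pass (0.22, q = 0.789).

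**Figure D3:**
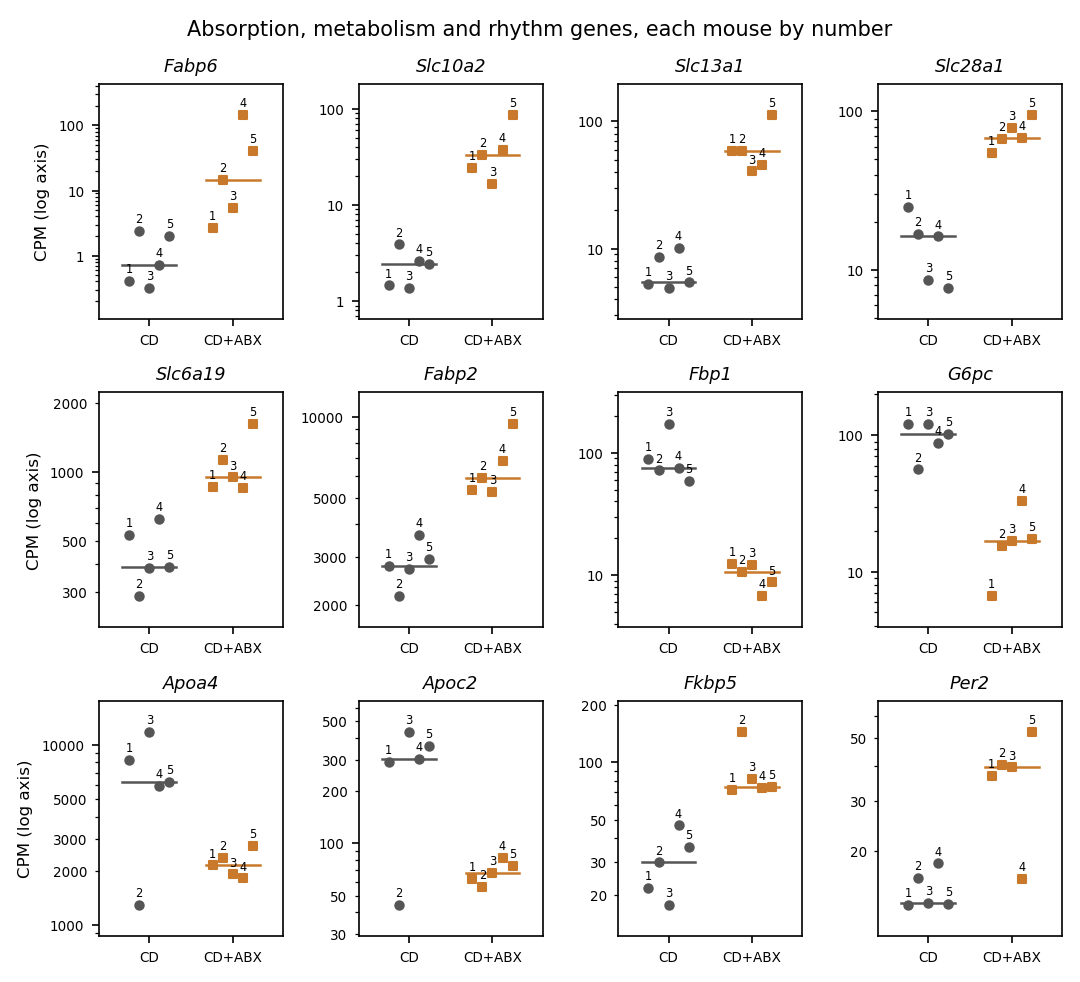
Levels of 12 genes of absorption, metabolism and daily rhythm (CPM on log axes, with a different range for each gene) in the 5 CD mice (grey) and 5 CD+ABX mice (orange), with numbers for the mice and lines for the group medians. The groups separate for all but Apoa4, Apoc2 and Per2, where CD mouse 2 or CD+ABX mouse 4 lies on the side of the other group.

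Most genes of cholesterol synthesis rose. Of 25 genes 21 rose at q under 0.05, 1 of them by 2-fold, none fell, and 13 did not overlap between groups, with a median log2 fold change of 0.45. Hmgcs1, the cytosolic synthase at the start of the pathway, named after its values were seen, was at 126, 183, 142, 157 and 161 CPM in CD mice and 221, 227, 201, 204 and 229.6 CPM in CD+ABX mice (log2 fold change 0.49, standard error 0.09, q = 0.00251). Sterol exporters went the other way: Abcg5 (-0.72, q = 0.00674) and Abcg8 (-0.84, q = 0.00359), named after their values were seen, fell. Between 15 and 22 members rose when 1 mouse was left out. The sterol regulatory element letters TCACNCCAC, searched on both strands, were in 1 of 17 promoter windows of the list (5.88%), that of Hmgcs1, and in 1.22% of all windows.

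Enzymes of detoxification were divided. Of 41 cytochrome P450 and other xenobiotic genes 4 were called higher and 3 lower, including the enzymes Cyp2a12 (3.0, q = 0.0405) and Cyp2c66 (-1.9, q = 0.00475), which were named after their values were seen. The list summed to 4048 CPM in CD mouse 2 and to 5707 CPM or more in the other CD mice. Among its members the carboxylesterases Ces1f, at 5.18, 8.63, 3.91, 4.43 and 6.44 CPM in CD and 33.5, 45.2, 28.9, 38.9 and 34.8 CPM in CD+ABX mice (log2 fold change 2.66, standard error 0.39, q = 0.000423), and Ces1g (log2 fold change 1.82, standard error 0.31, q = 0.00112) rose, as did the drug efflux pump Abcb1a (log2 fold change 1.22, standard error 0.21, q = 0.00129), which changed by less than 2-fold on removing the mouse CD+ABX 5 (log2 fold change from 0.96 to 1.38 and q up to 0.00481 over the 20 fits). Cyp3a11 and Cyp3a25, P450 enzymes that handle drugs and bile acids, fell but overlapped, with Cyp3a11 at 245, 47.5, 247, 136 and 70.4 CPM in CD and 37.4, 89.6, 35.7, 61.5 and 57.5 CPM in CD+ABX mice. The call of Cyp3a11 (log2 fold change -1.41, standard error 0.36, q = 0.0148) was lost on removing the mouse CD 3 (log2 fold change from -1.63 to -1.15 and q up to 0.0502 over the 20 fits) and with the replicate block or with the 2 groups fitted alone (q up to 0.0798), and that of Cyp3a25 (log2 fold change -1.11, standard error 0.22, q = 0.0029) on removing 1 of the mice CD 1 and CD 3 (log2 fold change from -1.27 to -0.95 and q up to 0.0102 over the 20 fits). Cyp1a1, the classical target of the aryl hydrocarbon receptor, was at 0.138, 0.838, 0.698, 0.115 and 0.0421 CPM in CD mice and 0.0221, 0.024, 0, 0.0779 and 0.0754 CPM in CD+ABX mice (log2 fold change -3.08, standard error 0.85, q = 0.023), but CD mice 2 and 3 carried the level. It was not called without them (q = 0.458), and its call was also lost on removing 1 of the mice CD 2, CD 3, CD+ABX 2 and CD+ABX 3 (log2 fold change from -3.44 to -2.55 and q up to 0.0678 over the 20 fits) and by limma-voom, with the replicate block or with the 2 groups fitted alone (q up to 0.0733). Of 11 genes of this receptor and its targets 4 fell at q under 0.05, Cyp1a1 among them, and 1 rose. Their median log2 fold change was -0.33, and over all genes tested 7.43% fell and 5.35% rose. With 1 mouse left out 2 to 5 members fell, and without CD mice 2 and 3 it was 2. Of the Akr1c enzymes, aldo-keto reductases of steroids and quinones, 2 were among the genes with the highest fold changes: Akr1c19 rose from 25.6, 24.2, 13.6, 29.2 and 21.7 to 147, 147, 103, 94.8 and 177 CPM (log2 fold change 2.55, standard error 0.27, q = 4.5e-05) and Akr1c13 from 37.2, 34.2, 29.4, 38.5 and 36.5 to 123, 131, 99.8, 103 and 156 CPM (log2 fold change 1.8, standard error 0.18, q = 3.54e-05). The Akr1c and Ces1 families have close paralogs that could share reads, and Marcksl1-ps4, a processed pseudogene that rose (log2 fold change 2.64, standard error 0.33, q = 0.000102), lies within the span of Akr1c19 (chromosome 13, 4248735 to 4249025).

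Further genes had the highest or lowest log2 fold changes. Slc22a13b and Slc22a13, neighbouring organic anion carriers that could share reads, were at 12.4, 4.96, 19.99, 6.54 and 6.42 and 4.05, 1.33, 6.78, 2.0 and 2.65 CPM in CD mice and at 1.23, 1.27, 1.49, 1.09 and 1.45 and 0.353, 0.36, 0.532, 0.487 and 0.754 CPM in CD+ABX mice (Slc22a13b log2 fold change -2.94, standard error 0.38, q = 0.000138; Slc22a13 log2 fold change -2.74, standard error 0.47, q = 0.00126). Acta1, skeletal muscle actin, fell (log2 fold change -3.42, standard error 0.69, q = 0.00358), with CD mouse 3 at 53.5 CPM and the other CD mice at 4.6 to 10.6 CPM. The uncharacterised gene 2210407C18Rik fell without overlap (log2 fold change -2.29, standard error 0.28, q = 7.59e-05). Among those that rose, Ddah1, which degrades inhibitors of nitric oxide synthase, went from 3.97, 6.63, 2.65, 5.32 and 5.09 to 17.6, 19.8, 16.7, 20.9 and 25.7 CPM (log2 fold change 2.09, standard error 0.22, q = 4.5e-05). The others were Fam151a (log2 fold change 1.85, standard error 0.44, q = 0.00929), Otop2, a proton channel (log2 fold change 1.85, standard error 0.34, q = 0.00194), and Bhmt, which remethylates homocysteine (log2 fold change 1.76, standard error 0.45, q = 0.0142). Slc46a1, the intestinal folate carrier, fell (log2 fold change -1.4, standard error 0.31, q = 0.00659) although CD mouse 2, at 20.7 CPM, lay below every CD+ABX mouse. Apol7e, of the apolipoprotein L family, fell (log2 fold change -1.05, standard error 0.14, q = 0.000157) by less than 2-fold on removing 1 of the mice CD 4 and CD 5 (log2 fold change from -1.13 to -0.90 and q up to 0.000785 over the 20 fits). Car4, a membrane carbonic anhydrase also listed among colon markers, rose (log2 fold change 1.29, standard error 0.21, q = 0.000913).

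Of 16 core clock genes 4 rose and 1, Fbxl21 (-0.56, q = 0.0331), fell, and the list's median log2 fold change was 0.023. Of 10 clock output factors 3 rose and none fell, with a median of -0.11. Fbxl21, a ubiquitin ligase component that acts on the clock's repressors, was named after its values were seen. Per2, a core repressor of the clock, was at 12.9, 16.1, 13.2, 18.1 and 13 CPM in CD mice and 36.9, 40.3, 39.5, 15.9 and 52.6 CPM in CD+ABX mice (log2 fold change 1.34, standard error 0.22, q = 0.000913), with CD+ABX mouse 4 inside the CD range. Dbp, a transcription factor driven directly by the clock, was at 11.7, 18.5, 11.2, 21.8 and 5.07 CPM in CD and 48.6, 31.3, 33.8, 3.99 and 63.9 CPM in CD+ABX mice and missed the threshold (log2 fold change 1.42, standard error 0.47, q = 0.0525). Again CD+ABX mouse 4 was low. Arntl and Nfil3, which peak in the opposite phase, were at 69.6 and 19.1 CPM in CD+ABX mouse 4, against 26.5 to 34.8 and 3.39 to 5.68 CPM in the other CD+ABX mice (Arntl -0.33, q = 0.425; Nfil3 -0.92, q = 0.0979). Without CD+ABX mouse 4, Nfil3 was called lower (log2 fold change -1.62, q = 0.000411). The called core clock genes were Per2, Per3 (1.04, q = 0.0327) and Ciart (2.06, q = 0.0166). The call of Per3 was lost on removing 1 of the mice CD 1, CD 3, CD 5, CD+ABX 1, CD+ABX 2 and CD+ABX 5 (log2 fold change from 0.80 to 1.29 and q up to 0.106 over the 20 fits) and by limma-voom, with the replicate block or with the 2 groups fitted alone (q up to 0.153) and that of Ciart on removing the mouse CD+ABX 5 (log2 fold change from 1.4 to 2.41 and q up to 0.0702 over the 20 fits) and by limma-voom or with the 2 groups fitted alone (q up to 0.168). Hlf, an output factor, rose (1.33, q = 0.0234), a call lost on removing 1 of the mice CD 3, CD 5, CD+ABX 2 and CD+ABX 5 (log2 fold change from 1.13 to 1.61 and q up to 0.0684 over the 20 fits) and by limma-voom, with the replicate block or with the 2 groups fitted alone (q up to 0.163). The hour at which mice were killed is not given in the sources used here, and its part in these values was not tested.

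Genes that respond to glucocorticoids, the adrenal hormones, gave calls both ways. Fkbp5 (chromosome 17, 28399094 to 28517527; ENSMUSG00000024222.17), a chaperone that glucocorticoids induce, was at 21.9, 29.8, 17.9, 46.6 and 36 CPM in CD mice and 71.4, 144, 81.6, 73.6 and 74.6 CPM in CD+ABX mice, with no overlap (log2 fold change 1.55, standard error 0.24, q = 0.000544). Zbtb16 (log2 fold change 2.11, standard error 0.55, q = 0.0172) and the metallothionein Mt2 (log2 fold change 1.58, standard error 0.42, q = 0.0186) rose with overlap, and their calls were lost on removing the mouse CD+ABX 2 (log2 fold change from 1.71 to 2.35 and q up to 0.0534 over the 20 fits) and by limma-voom (q up to 0.095) and on removing the mouse CD+ABX 4 (log2 fold change from 1.3 to 1.96 and q up to 0.0553 over the 20 fits) in turn. Other members of the list, such as the glucocorticoid receptor Nr3c1 (0.00, q = 0.983) and Tsc22d3 (-0.22, q = 0.494), both chosen after their values were seen, did not pass the test. Of 19 genes 4 rose and 1, Pdk4, fell, with a median log2 fold change of 0.18.

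Many lists held few or no changes past the test. None of 21 proliferation genes passed, nor any of 13 mitochondrially encoded genes, 10 endothelial and fibroblast markers, 5 red cell markers or 4 mast cell genes, among them Mcpt1 (0.16, q = 0.905). Of 74 cytosolic ribosomal protein genes 2 passed and none was called. Others held changes of less than 2-fold and no called gene. Over all genes tested 7.43% fell and 5.35% rose at q under 0.05. Of 30 pattern-recognition receptors 8 fell, a larger share than that, and none rose, with a median log2 fold change of -0.27. Of 18 inflammasome, gasdermin and IL-18 genes 2 rose and 3 fell, of 24 tight junction genes 3 rose and 1 fell, of 17 Trp metabolism genes 3 rose and 1 fell, and of 22 genes of the integrated stress response 2 rose. Il18 (-0.21, q = 0.378), Gsdmc4 (0.41, q = 0.665) and Ido1 (-0.42, q = 0.51), which encode a cytokine, a gasdermin and an enzyme of Trp breakdown, had overlapping groups. Pancreatic acinar genes had 6 members called lower of 9, among them Ctrb1 (-7.44, q = 0.00929), Amy2a5 (-6.43, q = 0.0101), Cela2a (-4.37, q = 0.0122) and Cel (-7.03, q = 0.0139). These rested on CD mouse 5, and without it none was called (q up to 0.971 for Cel). The liver gene Alb rose (5.88, q = 0.0449) through CD+ABX mice 1 and 2, at 10.9 and 12.5 CPM with the other CD+ABX mice at 0.0195 to 0.0377 CPM and the CD mice at 0.0233 to 0.14 CPM, a call lost on removing 1 of the mice CD 1, CD 2, CD 3, CD 4, CD 5, CD+ABX 1, CD+ABX 2, TDD+ABX 1, TDD+ABX 2, TDD+ABX 3, TDD+ABX 4 and TDD+ABX 5 (log2 fold change from 5.1 to 6.24 and q up to 0.0961 over the 20 fits) and by limma-voom, with no filter on low counts, with the replicate block or with the 2 groups fitted alone (q up to 0.693).

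**Figure D4:**
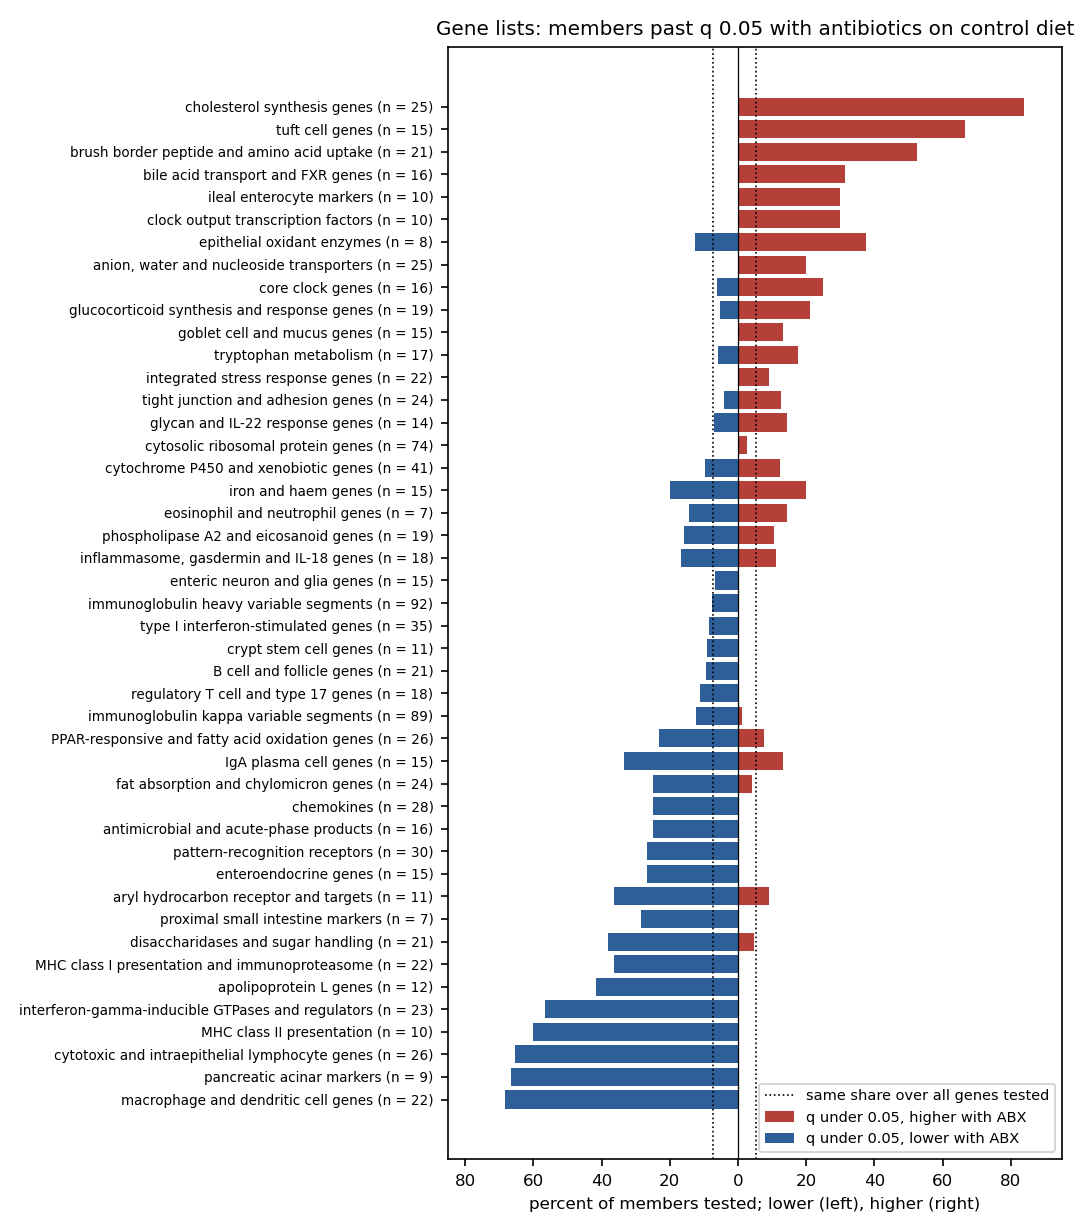
Bars give, for each gene list with at least 7 members tested and at least 1 member past q 0.05 with antibiotics on CD, the percent of tested members that were lower (blue, to the left) or higher (red, to the right), with the number tested in parentheses. The shorter lists of colon and liver markers, which also had members past q 0.05, are not drawn. Dotted lines mark the shares over all 16306 genes, 7.43% lower and 5.35% higher. Cholesterol synthesis, tuft cell and brush border genes reach furthest to the right, and macrophage, acinar, cytotoxic and MHC class II genes furthest to the left, the acinar bar resting on CD mouse 5.

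To examine whether the response depended on diet, the same contrast was taken in the TDD mice, which share no animal with the first comparison but share the fit. Antibiotics changed 272 genes on TDD (1.67%), 61 higher and 211 lower. Of the 375 genes called on CD, 343 (91.5%) had a fold change of the same sign on TDD, against 70.5% of all genes tested, and 103 were called there in that direction, which is 27.5% of the CD calls and 37.9% of the TDD calls. Another 6 were called in opposite directions. The median size of the log2 change of the 375 genes was 1.42 on CD, where they were chosen for their size, and 0.90 on TDD. Genes called on both diets included Slc10a2 (2.65 on TDD), Fabp6 (3.92), Slc13a1 (2.04), Fbp1 (-2.0), G6pc (-1.59), Slc22a13b (-2.99), Ighg2b (-2.95), Acta1 (-3.05) and Fabp2 (1.22). At q under 0.05 without the fold limit 2525 genes passed on TDD (15.5% of all tested), 1172 of them higher and 1353 lower. Cholesterol synthesis genes rose on TDD too, 18 of 25 at q under 0.05, and 6 of 10 MHC class II genes and 9 of 22 macrophage and dendritic cell genes fell. Of the 26 cytotoxic lymphocyte genes 5 fell on TDD and none was called.

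The test of the difference between the diets called 4 genes (0.0245%), 6 passed without the fold limit (0.0368%), and 1452 genes (8.90%) had an unadjusted p under 0.05. Gzmk had a log2 fold change of -5.15 on CD and of -0.18 on TDD, where mice without antibiotics were at 0.186 to 0.357 CPM, with a difference of -4.98 (standard error 0.87, q = 0.0438). Fkbp5 rose on CD and changed by -0.37 on TDD, where mice without antibiotics were at 187 to 201 CPM, with a difference of 1.92 (standard error 0.33, q = 0.0433). Chac1, which degrades glutathione under amino acid stress, changed by -0.42 on CD and 4.59 on TDD, with a difference of -5.01 (standard error 0.78, q = 0.0433), and Igkv15-103 rose on CD and changed by -2.78 on TDD, with a difference of 4.8 (standard error 0.81, q = 0.0433). Several further genes passed on 1 diet, or moved in opposite directions, without passing this test. Fgf15 rose on TDD (2.38, q = 0.0134), with a difference of -3.27 (standard error 0.82, q = 0.139). Reg3g (-3.24, q = 0.00221), Reg3b (-3.52, q = 0.00157) and Saa1 (-4.53, q = 0.0151) fell on TDD, with q for the difference of 0.442, 0.32 and 0.531. Zbtb16 fell on TDD (-2.16, q = 0.0121), with a difference of 4.27 (standard error 0.77, q = 0.0545). By limma-voom or with RLE scaling the difference between diets called no gene, with 1384 and 1455 genes at an unadjusted p under 0.05.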

How the data were processed

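Poly-A RNA of 1 piece of terminal ileum per mouse had been sequenced on an Illumina NovaSeq, 1 library per mouse. The authors made the deposited estimated counts per gene with kallisto 0.44.0 against the GRCm38 transcriptome, and the table held 35204 genes as whole numbers that needed no further rounding. How transcripts were summed to genes is not given in the sources used here. Reads of close paralogs could be split between them, and 151 of 13801 genes held 2 times the sum of their transcripts' deposited estimated counts (within 1%), among them Muc2, which doubles their levels but not their fold changes. Another 113 differed from that sum by more than 2% in at least 1 mouse, among them Cd8b1, at 0.948 to 1.03 times the sum, and Amy2a5, at 0.892 to 1.14 times. The transcript TPM table was not used. Samples were grouped by their labels, and all 20 mice were used.

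The test covered every gene that reached 0.5 CPM in any mouse and used edgeR 4.0.16 (TMM scaling, quasi-likelihood test, R 4.3.3), with the 4 groups in 1 fit, and p-values were adjusted by Benjamini-Hochberg over all 16306 genes. Every q in the text is from that test unless another tool is named. Standard errors were computed from the fold change and its F statistic. The difference between diets was the interaction contrast. The script was tested on simulated data. The genes described were the 15 highest and 15 lowest called log2 fold changes among genes whose mean was at least 1 CPM in either group and whose groups did not overlap, a list of well-known ileal and immune genes, up to 4 called members of each gene list, and the genes that differed between diets; a few of these are not reported here. Genes outside this rule were also described, such as Vil1, Lct, Gata4, Fabp1, Trdc, Chga, Sis and those marked as named or chosen after their values were seen. Members and lists were chosen with earlier results of these data known. Promoter windows were from RefSeq on GRCm38.p6. Alternatives were RLE and upper-quartile scaling, DESeq2 1.42.0, limma-voom (limma 3.58.1), other filters, no fold limit, a replicate block, the 2 groups fitted alone, and leaving out each mouse. Leaving out CD mice 2 and 3, or 4 and 5, was added after seeing the data. Libraries held 36676963 counts or more, at which genes near 0.1 CPM rest on a few counts.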

Additional observations from a re-analysis of the deposited data

Results flagged for a closer look

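In 21 of 244 groups of 5 values 1 mouse lay far from the other 4. A rate of 1 in 20 would give about 12.2, but that rate is for independent values with a normal spread. Many of these genes were chosen for their results and some moved together, so that 12.2 is not an expectation for them. Among CD mice, mouse 5 stood apart for the acinar genes Ctrb1 (34.4 CPM), Amy2a5 (27.5 CPM), Cela2a (34.1 CPM) and Cel (17.8 CPM), for Ifi27l2a (37.3 CPM) and for Cd6 (5.98 CPM). CD mouse 3 stood apart for Acta1 (53.5 CPM), Fbp1 (173 CPM) and Igkv6-15 (33.5 CPM).

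Among CD+ABX mice, mouse 4 stood apart for Fabp6 (144 CPM), Nfil3 (19.1 CPM), Arntl (69.6 CPM) and Cel (0.0779 CPM). Mouse 5 did so for Fcrl1 (0.528 CPM), Slc13a1 (112 CPM), Ccl28 (12.4 CPM), Chac1 (1.87 CPM) and Slc5a6 (56.7 CPM). Cd8a was low in mouse 1 (3.15 CPM), Fkbp5 high in mouse 2 (144 CPM) and Cxcr3 high in mouse 3 (1.23 CPM).

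The effect of antibiotics differed between the diets by edgeR's interaction test for Chac1 (-5.01 on the log2 scale, CD effect minus TDD effect), Fkbp5 (1.92), Gzmk (-4.98) and Igkv15-103 (4.80), with q = 0.0433, 0.0433, 0.0438 and 0.0433 in that order.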

How the results depend on the processing

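The number of genes called on CD (375) was 365 with RLE scaling, 373 with upper-quartile scaling, 406 by DESeq2, 290 by limma-voom, 321 and 395 with a stricter or no filter, 326 with the 2 groups fitted alone, and 287 to 405 with 1 mouse left out, lowest without CD mouse 5. It was 324 without CD mice 2 and 3 and 281 without CD mice 4 and 5. Without the fold limit it was 2083, and 2525 on TDD, by that setting's own construction. The TDD count (272) ran from 172, without TDD+ABX mouse 1 or 3, to 422, without TDD+ABX mouse 5, and was 410 without TDD mouse 1.

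The 4 genes that differed between diets were the least stable count: 0 with RLE scaling, 51 by DESeq2, 0 by limma-voom, 1 with the stricter filter, 1 with no filter, 2 without CD mice 2 and 3, and 0 to 9 with 1 mouse left out, highest without CD mouse 2. The cause was not tested.

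Correlations of same-numbered CD and CD+ABX mice were -0.125 to 0.207, and only mouse 5 matched its own number best. CD+ABX mouse 5 was the best match of CD mice 1, 3, 4 and 5, so that this match says nothing about pairing. Correlations of expression cannot settle whether the mouse numbers paired the groups. With the replicate block 307 genes were called on CD, 252 on TDD and 0 for the difference.

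Of 89 called genes named by the rule of selection, 45 kept their call in every alternative that tested them. Other genes described were not followed 1 by 1 through the alternatives. Without CD mice 2 and 3 the calls lost were those of Alb, Anpep, Ciart, Cyp1a1, Duox2, Duoxa2, Enpep, Fcrl1, Hlf, Ighg2b, Ighv1-64, Ighv8-8, Igkv15-103, Irf4, Mef2b, Mt2, Per3, Slc5a6 and Zbtb16, and without CD mice 4 and 5 those of Alb, Amy2a5, Apol7e, B3gnt6, Bhmt, Ccl4, Cd8a, Cel, Cela2a, Ctla4, Ctrb1, Duox2, Duoxa2, Gbp6, Gzma, Gzmb, Hlf, Ifi27l2a, Ifi44, Igkv15-103, Nlrc5, Pdk4, Per3 and Zbtb16. Among the genes described, directions turned for Mcpt1 (-0.050 to 0.55 with 1 mouse left out, -0.050 without CD mouse 1 and -0.030 without CD+ABX mouse 4), Foxp3 (-0.42 to 0.12, highest without CD mouse 3, and 0.36 without CD mice 2 and 3), Tph1 (-0.25 to 0.032, highest without CD mouse 5, and 0.059 without CD mice 4 and 5), Cel (-8.07 to 0.10, highest without CD mouse 5), and Nos2 (-0.023) and Oas2 (0.13) without CD mice 4 and 5. Mice of 1 group may have shared cages, which the labels do not give, so that p-values measure the spread between these mice. Genes under about 0.1 CPM, such as Gzmk with antibiotics, rested on a few counts.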
